A study of Mus musculus with 24 samples.

Results

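The FoxO transcription factor genes Foxo1, Foxo3, Foxo4 and Foxo6, together with Foxo6os, a noncoding gene on the strand opposite to Foxo6, were followed in mouse calf muscle. The 5 genes were picked by symbol from 43346 genes in a deposited count table, with Foxo6 and Foxo6os lower and Foxo1 higher in tumour-bearing mice. The contrast between tumour-bearing and vehicle mice therefore chose them, and their values in it are given as a description with no test. The female LLC1, female vehicle, male LLC1 and male vehicle groups held 6 C57BL6 mice each. At an age of 7 weeks LLC1 mice received LLC1 tumour cells beneath the skin and vehicle mice received PBS, a saline buffer. LLC1 is a line of mouse Lewis lung carcinoma used to model the muscle wasting of cancer. After 3 weeks of tumour growth the gastrocnemius was taken for poly(A) RNA sequencing. No allele or drug is named for any group, and the tumours all come from 1 cell line.

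FoxO proteins are forkhead transcription factors that act at the end of the insulin and IGF-1 pathway. When that pathway is active, the kinase Akt phosphorylates FoxO proteins, 14-3-3 proteins bind them, and they are held in the cytoplasm; when it is inactive, they enter the nucleus. In skeletal muscle FoxO1 and FoxO3 are best known for switching on the ubiquitin ligases atrogin-1 and MuRF1 and the genes of autophagy, through which fibres lose protein. FoxO6 was first described in the brain and differs from the others in that it shuttles poorly out of the nucleus.

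Libraries held 26.2 to 47.4 M (mega-counts), and all 5 genes passed the filter on low counts that left 17773 genes to test. The 4 groups were sequenced in 4 different lanes, per the library descriptions, and what belongs to the lane and what to the group cannot be told apart. The 10 muscle fibre markers were all detected, with a summed level of 113178 to 171434 CPM (reads of a gene per mega-count of its library, after TMM scaling) in LLC1 mice and 135120 to 179851 CPM in vehicle mice. All 9 neutrophil markers rose with LLC1 in both sexes, to summed levels of 60.7 to 163 CPM in female LLC1 mice against 1.86 to 3.23 CPM in female vehicle mice, and 59.9 to 170 CPM in male LLC1 mice against 1.34 to 3.71 CPM in male vehicle mice. All 7 erythroid markers rose too, to 1234 to 19989 CPM in female LLC1 mice, where mouse 2-4 had the highest level and the next mouse 3164 CPM, against 474 to 1029 CPM in female vehicle mice, and 1211 to 4295 CPM in male LLC1 mice against 426 to 1083 CPM in male vehicle mice. Of 8 endothelial markers 3 rose in females, and 4 rose and 2 fell in males; their summed medians were 388 CPM in female LLC1 against 276 CPM in female vehicle mice, and 353 CPM in male LLC1 against 287 CPM in male vehicle mice. Of 7 markers of fibro-adipogenic progenitors 3 fell in females and 6 in males, and of 6 markers of smooth muscle and pericytes none was called in females and 4 fell in males. Among all genes tested 9.92% were called in females and 36.3% in males. None of the 10 muscle fibre, 7 macrophage and monocyte, 7 adipocyte and 5 Schwann cell markers tested was called in females. In males 1 fibre marker fell, 1 macrophage and monocyte marker rose, and no adipocyte or Schwann cell marker was called. No marker of any list was at 0 in a whole group. The part of these cells in the values below was not tested, and in whole muscle fewer cells of a type and less RNA per cell cannot be told apart.

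The DNA sequence GTAAACA is the core that FoxO proteins bind in many of their targets. It was searched, as GTAAACA or as TGTTTAC on the other strand, in the 250 bases before the transcription start in the RefSeq promoter table (GRCm38.p6), and no other motif was searched. The motif stood in 1040 of 32851 promoters, or 3.17%. Among the FoxO target genes listed below, 34 of 43 had an entry, and 3 of their 40 promoters held it (7.50%), those of Trim63, Bcl2l11 and Txnip. Of the 5 genes followed here, Foxo1, Foxo3 and Foxo6os had an entry, and 0 of the 3 windows held the motif. For Foxo3 and Foxo6os the RefSeq starts differ from the deposited gene coordinates used below. By those coordinates the Foxo3 window reaches into the gene, whose start is at 42276755. The Foxo6os window ends at 120291132, before the deposited start at 120291350. The windows are shown 5′ to 3′ on the strand of the gene, since Trim63, which encodes MuRF1, is the target that differed most with LLC1 in males among the ubiquitin ligases, and Foxo1, Foxo3 and Foxo6os are the genes whose own levels are described. Capitals mark the motif, which lies 194 bases before the start of Trim63. The windows are chr4:134314870-134315119 (plus strand) for Trim63, chr3:52268087-52268336 (plus) for Foxo1, chr10:42276696-42276945 (minus) for Foxo3 and chr4:120290883-120291132 (plus) for Foxo6os.
Trim63: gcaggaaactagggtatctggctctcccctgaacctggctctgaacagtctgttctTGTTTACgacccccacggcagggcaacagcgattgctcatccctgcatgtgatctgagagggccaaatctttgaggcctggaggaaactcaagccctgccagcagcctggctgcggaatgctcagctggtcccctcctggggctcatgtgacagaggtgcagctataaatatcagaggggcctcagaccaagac
Foxo1: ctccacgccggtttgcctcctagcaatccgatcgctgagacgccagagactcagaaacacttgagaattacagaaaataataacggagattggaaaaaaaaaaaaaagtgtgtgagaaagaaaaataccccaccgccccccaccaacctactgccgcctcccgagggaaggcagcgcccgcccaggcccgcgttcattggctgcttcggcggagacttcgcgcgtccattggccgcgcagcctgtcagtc
Foxo3: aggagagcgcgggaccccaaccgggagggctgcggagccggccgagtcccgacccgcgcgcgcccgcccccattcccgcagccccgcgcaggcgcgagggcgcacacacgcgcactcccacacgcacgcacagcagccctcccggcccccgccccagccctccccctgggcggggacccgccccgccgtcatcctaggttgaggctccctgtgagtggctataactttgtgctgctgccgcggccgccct
Foxo6os: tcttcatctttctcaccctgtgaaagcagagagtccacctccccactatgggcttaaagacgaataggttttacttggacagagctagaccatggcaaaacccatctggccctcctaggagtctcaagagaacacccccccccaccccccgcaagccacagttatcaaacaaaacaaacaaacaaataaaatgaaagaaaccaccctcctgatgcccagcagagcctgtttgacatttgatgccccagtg

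Foxo4 was the most abundant of the FoxO genes per length of transcript in every group, and Foxo6 the least. On the scale of CPM per kb of exon, Foxo4 averaged 48.3 ± 4.85 in female LLC1, 39.7 ± 3.64 in female vehicle, 45.2 ± 4.75 in male LLC1 and 39.8 ± 5.83 in male vehicle mice (SD, n = 6 each). It made up 77.0% ± 5.05, 78.9% ± 3.65, 74.3% ± 8.66 and 83.3% ± 2.51 of the summed FoxO level in the same groups. Foxo3 followed at 7.62 ± 1.44 in female LLC1 against 5.42 ± 0.944 in female vehicle mice, and 8.58 ± 2.76 in male LLC1 against 4.16 ± 0.407 in male vehicle mice. Foxo1 lay close to Foxo3, at 6.48 ± 2.95 against 3.73 ± 1.76 in females and 7.56 ± 4.76 against 2.63 ± 0.723 in males, and the neighbours Foxo3 and Foxo1 differed by less than their spread in LLC1 mice. Foxo6 stood at 0.453 ± 0.268 in female LLC1 against 1.55 ± 0.274 in female vehicle mice and 0.236 ± 0.122 in male LLC1 against 1.06 ± 0.149 in male vehicle mice. Its share of the summed FoxO level was 0.705% ± 0.341 in female LLC1 against 3.09% ± 0.513 in female vehicle mice, and 0.420% ± 0.299 against 2.29% ± 0.668 in males. The noncoding Foxo6os had 1.50 ± 0.673 CPM per kb in female LLC1 against 6.50 ± 1.53 in female vehicle mice, and 0.830 ± 0.593 in male LLC1 against 4.98 ± 0.926 in male vehicle mice. Its level was thus below those of Foxo1 and Foxo3 in LLC1 mice and next to that of Foxo3 in vehicle mice.

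**Figure D1:**
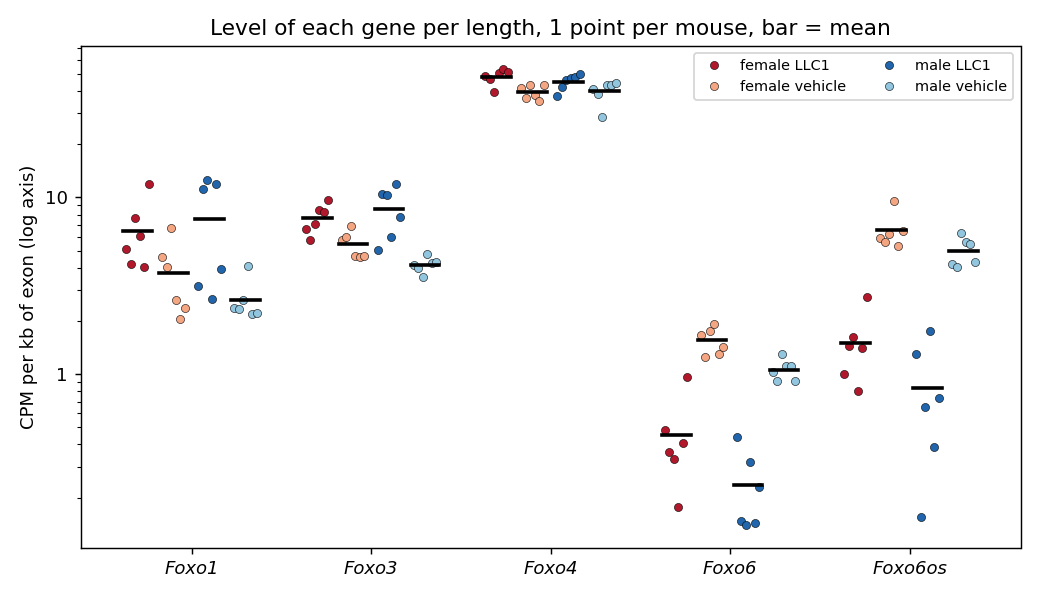
Level of each gene per length (CPM per kb of exon, log axis) in 24 mice, 1 point per mouse, with a bar at the mean of each group of 6. Foxo4 lies above all others in every mouse, and Foxo6 and Foxo6os are the 2 genes whose LLC1 points all lie below the vehicle points of the same sex. The contrast between LLC1 and vehicle chose the genes, and the share of all genes without overlap is not given here.

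Foxo1 (ENSMUSG00000044167, mm10 chromosome 3, 52268336 to 52353221, plus strand) encodes a FoxO factor whose mRNA is known to be raised in fasting muscle. In female LLC1 mice its levels were 35.0, 48.3 and 103 CPM (lowest, median, highest), against 17.7, 29.0 and 58.1 CPM in female vehicle mice. In male LLC1 mice they were 23.0, 65.6 and 109 CPM, against 19.0, 20.4 and 35.3 CPM in male vehicle mice. The groups overlapped in both sexes: 2 of 6 female and 3 of 6 male LLC1 mice lay above every vehicle mouse of their sex. The male LLC1 mice fell apart, with mice 1-5, 2-1 and 2-4 at 97.2, 109 and 103 CPM and mice 1-4, 2-2 and 2-5 at 27.3, 23.0 and 34.0 CPM. The log2 fold change (LLC1 over vehicle, edgeR fit) was 0.79 ± 0.39 (SE) in females and 1.52 ± 0.40 in males. In male LLC1 mice the SD of 41.3 CPM was more than the SD of 6.26 CPM in male vehicle mice. An antisense gene, Gm20402, covers 7.78% of the Foxo1 exons and had 1332 counts in all libraries beside 39490 for Foxo1; these libraries keep no strand, so reads over the shared bases cannot be told apart.

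Mouse titles carry a pair of numbers whose meaning is not given in the sources used here, and Foxo1 differed by the first of them in female vehicle mice. Mice numbered 1 had 35.2 to 58.1 CPM and mice numbered 2 had 17.7 to 22.8 CPM. Taken from mean CPM within number 1 (2 LLC1 and 3 vehicle mice), the female Foxo1 log2 fold change was -0.14. Within number 2 (4 LLC1 and 3 vehicle mice) it was 1.65. Foxo3 behaved alike, with -0.01 and 0.85. In males both numbers gave a positive value for Foxo1 (1.34 and 1.82) and for Foxo3 (0.91 and 1.08). There number 1 held 2 LLC1 and 4 vehicle mice, and number 2 held 4 LLC1 and 2 vehicle mice. The part of the first number in the female values of Foxo1 and Foxo3 was not tested.

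Foxo3 (ENSMUSG00000048756, chromosome 10, 42181841 to 42276755, minus strand) encodes the factor best known for driving Fbxo32 and autophagy genes in muscle. Its levels were 43.2, 58.0 and 73.1 CPM (lowest, median, highest) in female LLC1 mice against 35.0, 39.2 and 52.2 CPM in female vehicle mice. In male LLC1 mice they were 38.2, 68.5 and 90.4 CPM, against 26.7, 31.8 and 36.1 CPM in male vehicle mice. All 6 male LLC1 mice lay above all male vehicle mice. In females 4 of 6 LLC1 mice lay above all vehicle mice, and the groups overlapped. Among all genes tested edgeR called 19.5% higher in males and 4.97% higher in females. A call is another measure than groups that do not overlap, and the share of all genes without overlap is not given here. The log2 fold change was 0.49 ± 0.17 in females and 1.04 ± 0.17 in males.

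Foxo4 (ENSMUSG00000042903, chromosome X, 101254528 to 101260873, plus strand) encodes a less studied FoxO factor. It had 137, 173 and 186 CPM (lowest, median, highest) in female LLC1 mice against 122, 139 and 151 CPM in female vehicle mice. In male LLC1 mice it had 130, 164 and 175 CPM, against 99.5, 146 and 154 CPM in male vehicle mice. The groups overlapped in both sexes, with 5 of 6 female and 4 of 6 male LLC1 mice above every vehicle mouse of their sex. The log2 fold change was 0.28 ± 0.10 in females and 0.19 ± 0.10 in males, the smallest of the 5 genes in size in both.

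Foxo6 (ENSMUSG00000052135, chromosome 4, 120267079 to 120287349, minus strand) rested on few reads, 12 to 36 counts per library in male LLC1 mice and 68 to 202 in vehicle mice of either sex. Female LLC1 mice had 0.462, 1.01 and 2.51 CPM (lowest, median, highest), against 3.25, 4.03 and 5.03 CPM in female vehicle mice. Male LLC1 mice had 0.367, 0.492 and 1.15 CPM, against 2.38, 2.79 and 3.41 CPM in male vehicle mice. All 6 LLC1 mice lay below all 6 vehicle mice in each sex, and the mean was 3.42 times lower in female LLC1 mice and 4.49 times lower in male LLC1 mice. The log2 fold change was -1.77 ± 0.27 in females and -2.19 ± 0.30 in males. Among all genes tested edgeR called 4.95% lower in females and 16.8% in males, while the share of genes without overlap is not given here. Within mice of 1 first title number, with 2 to 4 mice per group, it was -1.88 and -1.72 in females and -1.89 and -2.29 in males. The 3 male LLC1 mice with high Foxo1, numbered 1-5, 2-1 and 2-4, had the lowest Foxo6, at 0.385, 0.367 and 0.374 CPM (14, 12 and 16 counts). Female LLC1 mouse 2-5, with 103 CPM of Foxo1, had the highest Foxo6 of the LLC1 mice, at 2.51 CPM.

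Foxo6os (ENSMUSG00000084929, chromosome 4, 120291350 to 120303892, plus strand) is annotated as an antisense noncoding gene whose function is not described here. It lies head to head with Foxo6: 4000 bases separate the annotated starts, and the genes share no exon in GENCODE M21, so an annotated base of the one is not a base of the other even without strand. Female LLC1 mice had 1.85, 3.26 and 6.25 CPM (lowest, median, highest), against 12.2, 13.9 and 21.8 CPM in female vehicle mice. Male LLC1 mice had 0.358, 1.58 and 4.01 CPM, against 9.29, 11.2 and 14.5 CPM in male vehicle mice. All LLC1 mice again lay below all vehicle mice of their sex, and the share of all genes without overlap is not given here. Among all genes tested edgeR called 4.95% lower in females and 16.8% in males. The log2 fold change was -2.11 ± 0.33 in females and -2.62 ± 0.35 in males, and the means were 4.33 and 6.01 times lower in LLC1 mice. There were 3.18 ± 0.931 counts of Foxo6os per count of Foxo6 in female LLC1 against 3.68 ± 0.503 in female vehicle mice, and 2.93 ± 1.37 in male LLC1 against 4.10 ± 0.303 in male vehicle mice, with overlapping ranges in both sexes. With the reads of both genes added, the log2 fold change was -2.03 in females and -2.52 in males.

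**Figure D2:**
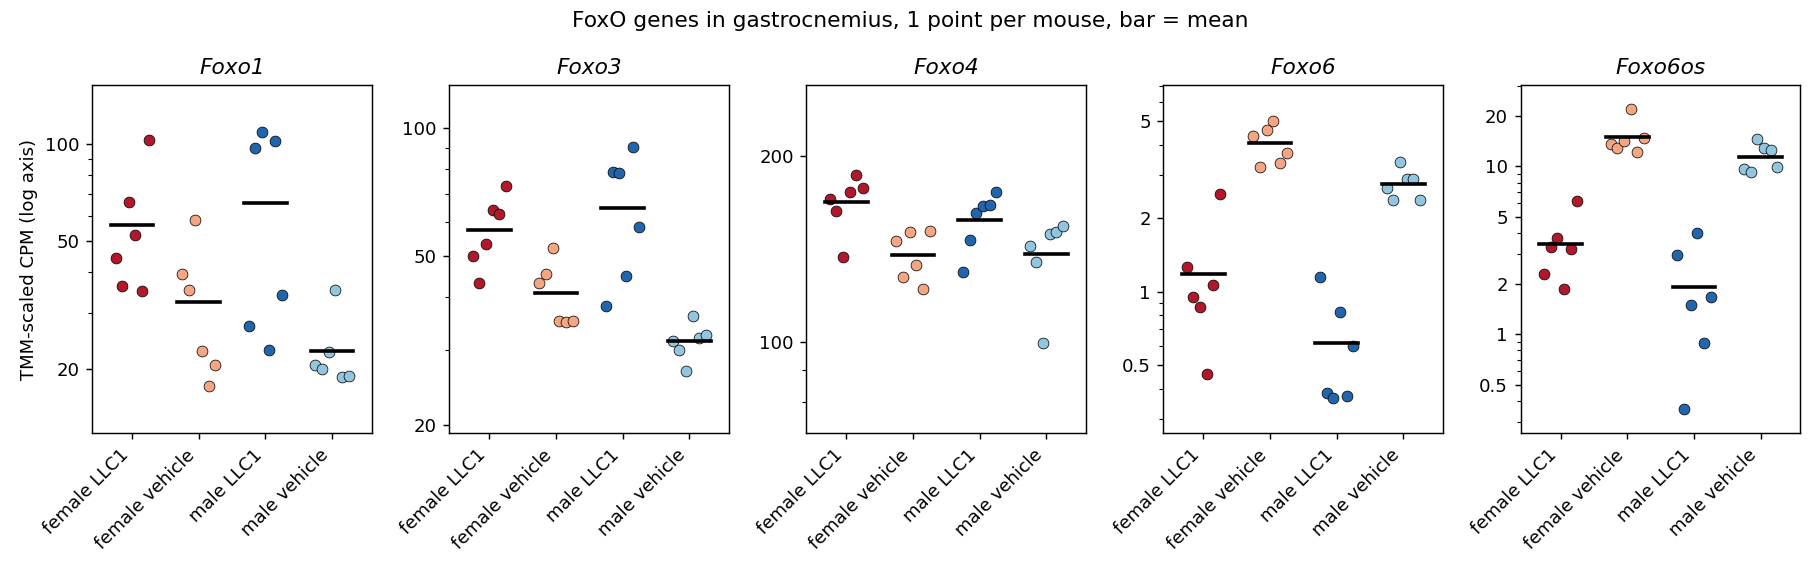
TMM-scaled CPM (log axis, a scale of its own for each gene) of the 5 genes in 24 mice, 1 point per mouse, with a bar at the group mean. Foxo6 and Foxo6os do not overlap between LLC1 and vehicle in either sex, Foxo3 does not in males, and for Foxo1 the male LLC1 mice split into 3 at 97.2 to 109 CPM and 3 at 23.0 to 34.0 CPM. This contrast chose the 5 genes, and the share of all genes without overlap is not given here.

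The neighbouring genes within 200 kb of Foxo6 were looked at next. Hivep3, a zinc finger gene 129033 bases away, had a log2 fold change of -0.26 ± 0.15 in females (edgeR adjusted p = 0.293) and -0.11 ± 0.15 in males (adjusted p = 0.605). Scmh1, a Polycomb group gene 117931 bases away on the other side, had 0.08 ± 0.07 (adjusted p = 0.501) and -0.09 ± 0.07 (adjusted p = 0.352). Neither passed the test. Edn2, which encodes endothelin-2, had 1 count over all libraries and was not tested.

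**Figure D3:**
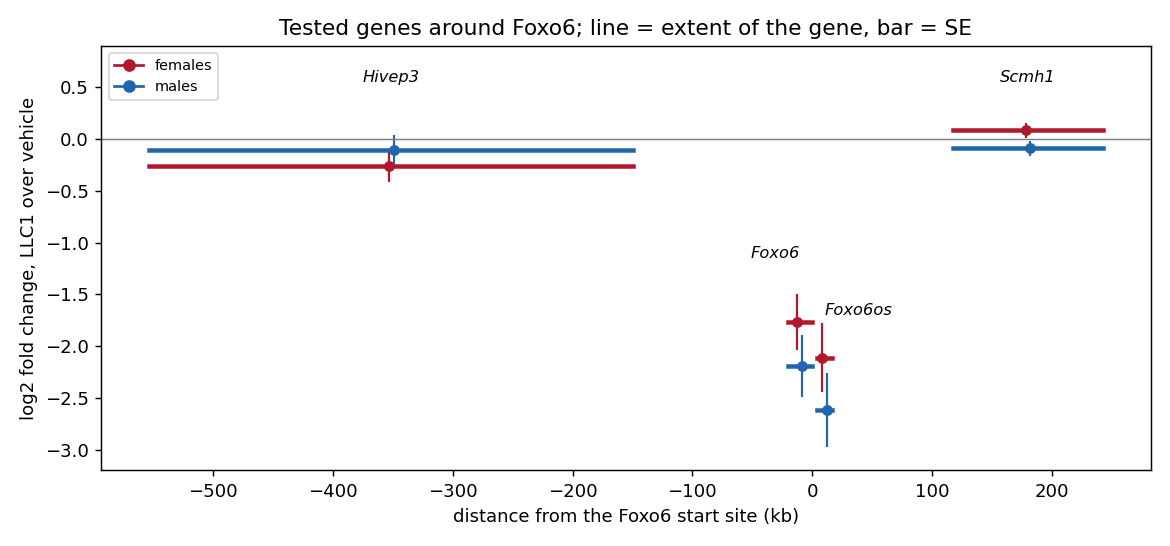
Log2 fold change (LLC1 over vehicle, bars are SE, 6 mice per group) of the 4 tested genes within 200 kb of Foxo6, against the distance from the Foxo6 start in kb, with a line over the extent of each gene. Foxo6 and Foxo6os lie at -1.77 and -2.11 in females and -2.19 and -2.62 in males, and Hivep3 and Scmh1 lie between -0.26 and 0.08.

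The sex difference was not used to choose the genes and was tested in the fit across all genes. Among LLC1 mice 1 of the 5 genes was called, where 15.7% of all genes were (6.07% higher and 9.62% lower in females): Foxo6 was higher in females than in males by a log2 fold change of 0.96 ± 0.31 (edgeR adjusted p = 0.0357), with 0.462 to 2.51 CPM in female against 0.367 to 1.15 CPM in male LLC1 mice, which overlap. That call ended without female LLC1 mouse 1-4 (adjusted p = 0.0635) or 2-5 (0.123), without male LLC1 mouse 1-5 (0.0939), 2-1 (0.0846), 2-4 (0.0988) or 2-5 (0.0520), with limma-voom (0.0584, and 0.0547 with sample weights), with the reads of Foxo6 and Foxo6os added (0.0674), with no filter on low counts (0.0575) and with only the LLC1 groups in the fit (0.142). Foxo6os was at 0.88 ± 0.36 (adjusted p = 0.0946), but it was called with limma-voom (1.17, adjusted p = 0.0455), with sample weights added to it (0.99, 0.0482) and with edgeR without male LLC1 mouse 2-2 (1.24, 0.0143). The other 3 genes had adjusted p-values of 0.535 to 0.739. All 5 Schwann cell markers were higher in females, with a summed level of 157 to 272 CPM in female and 78.4 to 148 CPM in male LLC1 mice. Among vehicle mice all 5 were higher in females too, where 2.95% of all genes were. There the summed level was 119 to 345 CPM in females and 74.5 to 130 CPM in males. The part of these markers in the Foxo6 difference was not tested.

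Among vehicle mice none of the 5 genes was called with edgeR, where 6.23% of all genes were (2.95% higher and 3.28% lower in females), and 2 had an unadjusted p under 0.05 (DESeq2 and limma-voom called 0 of the 5 too). These were Foxo6, at 0.54 ± 0.26 (female over male, edgeR adjusted p = 0.237), and Foxo3, at 0.38 ± 0.17 (adjusted p = 0.204). Foxo6 was called with limma-voom with sample weights (adjusted p = 0.0238) and with only the vehicle groups in the edgeR fit (0.0209), and Foxo3 with only the vehicle groups in the fit (0.0341). Foxo1 was at 0.50 ± 0.39 (adjusted p = 0.506), Foxo6os at 0.38 ± 0.31 (adjusted p = 0.537) and Foxo4 at 0.00 ± 0.10 (adjusted p = 0.992). The interaction, the female LLC1 effect minus the male one, was not called for any of the 5 genes nor for any other gene with edgeR, where 0% of genes were called, 2191 genes had an unadjusted p under 0.05 and DESeq2 called 44. Foxo3 had the lowest p of the 5, with -0.55 ± 0.24 (edgeR adjusted p = 0.366), followed by Foxo1 at -0.73 ± 0.55 (adjusted p = 0.591). Of the 5 genes, 1 had an unadjusted p under 0.05 with edgeR and with DESeq2, and 0 were called with DESeq2 or limma-voom.

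Genes known as FoxO targets were taken from 4 lists of 43 genes, of which 42 were tested; the lists were chosen with earlier results of these data known. In females 12 rose and 1 fell with LLC1, which is 31.0% of the 42 against 9.92% of all genes tested, and their median log2 fold change was 0.28 against -0.01 over all genes. In males 26 rose and 5 fell, 73.8% against 36.3% of all genes, with a median of 0.43 against 0.01. All 13 targets called in females were also called in males, where they made up 41.9% of the target calls. How many of all genes called in females were also called in males is not given here, so this overlap cannot be called particular to the targets. The female count was 6 when female LLC1 mouse 2-3, female LLC1 mouse 2-4 or female vehicle mouse 2-1 was left out, and 8 without female vehicle mouse 1-4. Below, up to 4 called genes with the largest change are named per list and sex. A gene named for 1 sex can therefore have changed in the other too.

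The ubiquitin ligases mark proteins for the proteasome. In females 3 of 6 rose and none fell, where 9.92% of all genes were called, and in males 5 of 6 rose and none fell (83.3% against 36.3%). Fbxo32, which encodes atrogin-1, had 465, 665 and 1373 CPM (lowest, median, highest) in female LLC1 mice against 139, 269 and 311 CPM in female vehicle mice. In males it had 909 to 3974 CPM with LLC1 against 291 to 517 CPM with vehicle. The groups did not overlap in either sex, and the share of all genes without overlap is not given here. Its log2 fold change was 1.71 ± 0.33 (edgeR adjusted p = 0.00187) in females and 2.57 ± 0.34 (adjusted p = 1.66e-05) in males. Trim63, which encodes MuRF1, had 274 to 774 CPM in female LLC1 against 167 to 267 CPM in female vehicle mice, and 457 to 2758 CPM in male LLC1 against 163 to 281 CPM in male vehicle mice. It rose by 1.22 ± 0.35 in females and 2.89 ± 0.37 in males (adjusted p = 0.0285 and 1.32e-05). The female call ended without female LLC1 mouse 2-3 (adjusted p = 0.0824), female vehicle mouse 2-1 (0.0637) or female vehicle mouse 2-3 (0.0514). Fbxo31 rose by 0.40 ± 0.13 in females, a call that ended in 8 of the runs without 1 library (adjusted p up to 0.0873), and by 0.66 ± 0.13 in males, and Fbxo30, which encodes the ligase MUSA1, by 0.69 ± 0.14 in males. Between the sexes, female LLC1 mice had less Fbxo32 than male LLC1 mice (log2 fold change -1.55 ± 0.32, adjusted p = 0.00371) and less Trim63 (-1.78 ± 0.35, adjusted p = 0.00259). The interaction was not called for either (adjusted p = 0.434 and 0.243).

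Of 12 targets in autophagy and the lysosome, 4 rose and none fell in females (33.3% called, against 9.92% of all genes), and 9 rose and 1 fell in males (83.3% against 36.3%). Bnip3, a mitochondrial receptor for autophagy, rose by 0.71 ± 0.19 in females and 1.27 ± 0.20 in males (edgeR adjusted p = 0.0209 and 7.27e-05). Its mean was 326 ± 56.1 CPM in female LLC1 against 199 ± 30.0 CPM in female vehicle mice, and 518 ± 236 CPM in male LLC1 against 215 ± 12.7 CPM in male vehicle mice (SD, n = 6). Map1lc3b, which encodes the autophagosome protein LC3B, rose by 0.51 ± 0.13 and 0.84 ± 0.13. Ulk1, the kinase that starts autophagy, and Bnip3l, a relative of Bnip3, rose by 0.47 ± 0.13 and 0.46 ± 0.14 in females. Their means in males were 156 and 89.6 CPM with LLC1 against 95.3 and 59.8 CPM with vehicle. In males Gabarapl1, another autophagosome protein gene, rose by 1.11 ± 0.21, and Ctsl, the lysosomal protease cathepsin L, by 0.85 ± 0.16. Without female LLC1 mouse 2-4 the female calls of Bnip3 (adjusted p = 0.0543), Ulk1 (0.0559) and Bnip3l (0.102) ended, and the Bnip3l log2 fold change was 0.28 in place of 0.46. That mouse had the highest erythroid markers, whose part in these values was not tested. The call of Ulk1 also ended without female LLC1 mouse 2-3 (0.0532), and that of Bnip3l without female vehicle mouse 1-3 (0.0599), 1-4 (0.0655) or 2-1 (0.0619).

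Of 15 targets in growth arrest and stress, 3 rose and 1 fell in females (26.7% called, against 9.92% of all genes), and 6 rose and 3 fell in males (60.0% against 36.3%). Depp1, a fasting-induced regulator of autophagy that the table lists under its older symbol 8430408G22Rik, rose by 1.67 ± 0.40 in females and 3.03 ± 0.41 in males (edgeR adjusted p = 0.0103 and 2.96e-05). Its mean was 21.5 ± 14.3 CPM in female LLC1 against 6.72 ± 2.58 CPM in female vehicle mice, and 55.2 ± 21.8 CPM in male LLC1 against 6.77 ± 2.52 CPM in male vehicle mice. In males Cdkn1a, the cell cycle inhibitor p21, rose by 2.23 ± 0.28, Sesn1, a stress-induced brake on mTORC1, by 2.23 ± 0.33, and Gadd45a, a stress gene also raised in denervated muscle, by 1.31 ± 0.30. In females Cdkn1a was at -0.05 ± 0.27 (adjusted p = 0.932). The vehicle means of these genes differed between the sexes. Cdkn1a had 36.5 CPM with LLC1 against 37.8 CPM with vehicle in females, and 78.5 against 16.8 CPM in males. Sesn1 had 73.3 against 46.5 CPM in females and 130 against 27.8 CPM in males. Gadd45a had 21.5 against 17.6 CPM in females and 26.4 against 10.7 CPM in males. Sod2, the mitochondrial superoxide dismutase and a textbook FoxO target, fell by 0.27 ± 0.08 on the log2 scale in females. Bcl2l11, the cell death protein Bim, rose by 0.34 ± 0.11 and Ccng2, an atypical cyclin, by 0.32 ± 0.10 in females. In males the means of Sod2, Bcl2l11 and Ccng2 were 157, 10.4 and 24.2 CPM with LLC1 against 202, 8.30 and 17.6 CPM with vehicle. The female calls of Sod2, Bcl2l11 and Ccng2 ended in 11, 12 and 6 of the runs that left out 1 library (adjusted p up to 0.136, 0.112 and 0.0837).

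Of 9 tested targets in metabolism and growth signalling, 2 rose and none fell in females (22.2% called, against 9.92% of all genes), and 6 rose and 1 fell in males (77.8% against 36.3%). Eif4ebp1, a repressor of cap-dependent translation, rose by 1.12 ± 0.27 in females and 2.08 ± 0.28 in males (edgeR adjusted p = 0.0121 and 2.17e-05). Pdk4, which blocks glucose oxidation, rose by 1.50 ± 0.58 in males, a call that ended in 12 of the runs without 1 library (adjusted p up to 0.122), and varied from 137 to 1261 CPM among female LLC1 mice. Irs2, an adaptor of the insulin receptor, rose by 0.85 ± 0.15 and Mstn, the growth inhibitor myostatin, by 0.70 ± 0.18 in males. Insr, the insulin receptor, rose by 0.31 ± 0.10 in females, a call that ended in 10 of the runs without 1 library (adjusted p up to 0.0933). Its mean in males was 166 CPM with LLC1 against 122 CPM with vehicle. Across all 42 tested targets, 1 was higher and 14 were lower in female than in male LLC1 mice, or 35.7%, against 15.7% of all genes, and 1 was higher and 2 were lower in vehicle mice, or 7.14%, against 6.23% of all genes.

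**Figure D4:**
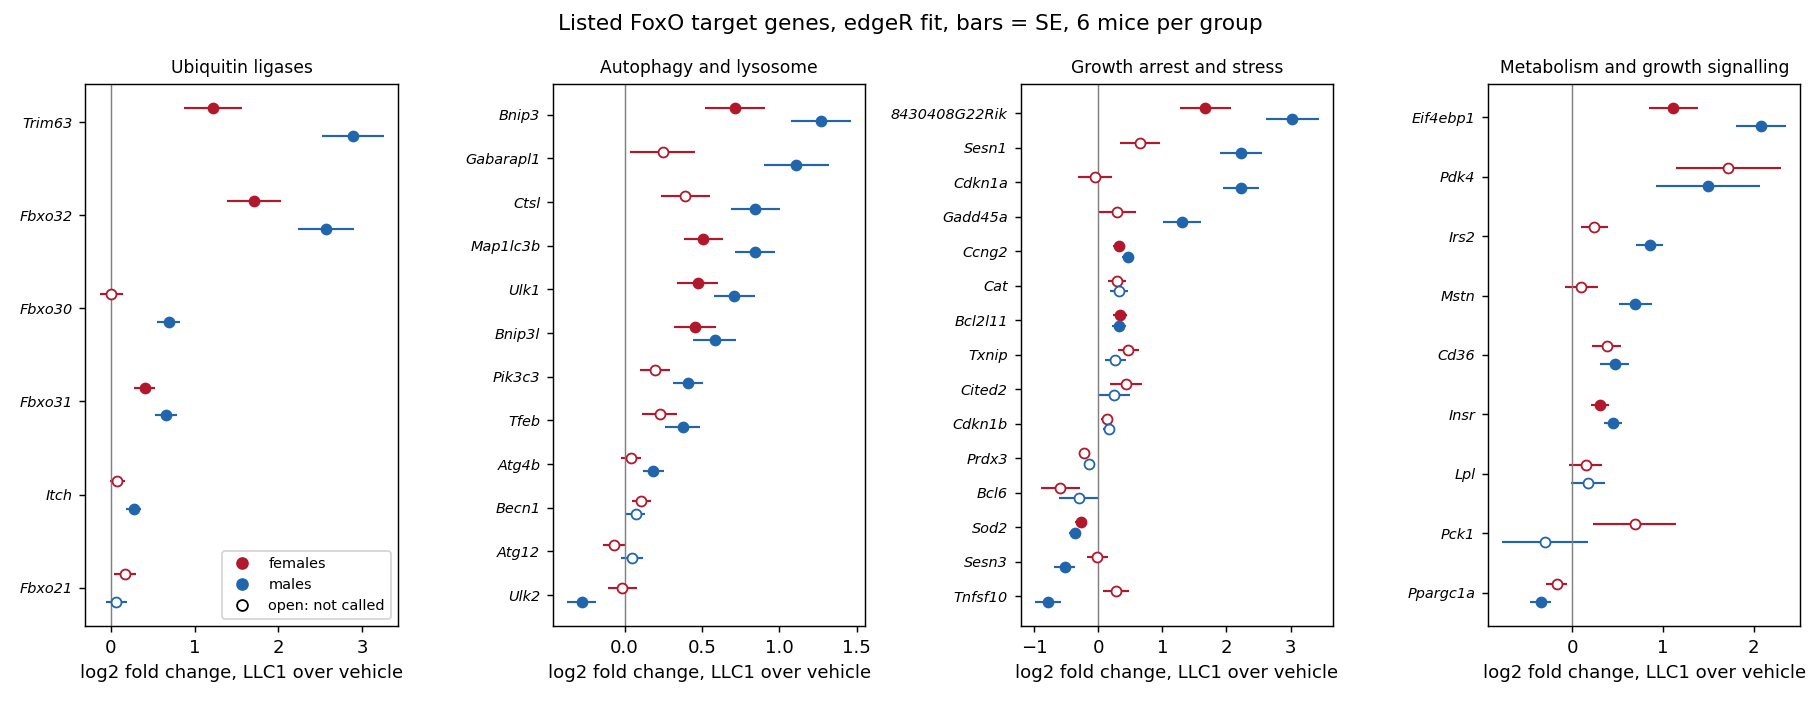
Log2 fold change (LLC1 over vehicle, bars are SE, 6 mice per group) of the 42 tested FoxO target genes in females and males, in 4 panels by function, each ordered by the male value. Filled points were called with edgeR; Trim63 at 1.22 and 2.89 and Depp1 (8430408G22Rik) at 1.67 and 3.03 are among those called in both sexes.

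Genes that act upstream of FoxO were counted in the same way. Of 22 tested genes of the PI3K and Akt pathway 4 rose and none fell in females (18.2% against 9.92% of all genes, median 0.07), and 7 rose and 2 fell in males (40.9% against 36.3%, median -0.01). In males Pik3r1, the regulatory subunit p85α of PI3K, rose by 1.66 ± 0.29 (edgeR adjusted p = 2.74e-04), Akt1 by 0.99 ± 0.20 and Irs2 as above, while the growth factor gene Igf1 fell (log2 fold change -0.87 ± 0.23, adjusted p = 0.00616). Male LLC1 mice 1-5, 2-1 and 2-4 had 177, 302 and 268 CPM of Pik3r1 and mice 1-4, 2-2 and 2-5 had 112, 55.1 and 99.0 CPM, against 45.4 to 58.0 CPM in male vehicle mice. In females Akt1 rose by 0.61 ± 0.20, the IGF-1 receptor gene Igf1r by 0.44 ± 0.12, the kinase gene Mtor by 0.31 ± 0.09 and Insr as above. The Akt1 call in females, at an adjusted p of 0.0499, ended in 17 of the runs without 1 library (adjusted p up to 0.103), that of Igf1r in 4 (up to 0.0776) and that of Mtor in 3 (up to 0.0710).

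The 14-3-3 genes, whose proteins hold FoxO in the cytoplasm, were not called in females (0 of 7 tested, where 9.92% of all genes were called). There 3 had an unadjusted edgeR p under 0.05, and DESeq2 called 1, Ywhag. In males 1 rose and 1 fell (28.6% called, against 36.3% of all genes). Ywhaz rose by 0.23 ± 0.06 and Ywhae fell, at -0.18 ± 0.06 (edgeR adjusted p = 0.00726 and 0.0314). The Ywhae call ended in 6 of the runs without 1 library (adjusted p up to 0.0709). Of 26 enzymes and partners that modify or bind FoxO proteins, 5 rose and none fell in females (19.2% against 9.92%, median 0.05), and 7 rose and 2 fell in males (34.6% against 36.3%, median 0.14). Hdac4, a histone deacetylase gene that responds to loss of innervation in muscle, rose by 0.52 ± 0.13 and the methyltransferase gene Setd7 by 0.34 ± 0.09 in females. The acetyltransferase gene Crebbp rose by 0.27 ± 0.08 in females and 0.56 ± 0.08 in males, and Smad4, a TGF-β mediator, by 0.29 ± 0.09 and 0.39 ± 0.09. In males its relative Smad3 fell, at -0.76 ± 0.23, as did the nuclear export receptor gene Xpo1, at -0.33 ± 0.13. The calls of Smad4 and Crebbp in females and of Xpo1 in males ended in 7, 2 and 7 of the runs without 1 library (adjusted p up to 0.0735, 0.0646 and 0.116).

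The mice with the highest Foxo1 among male LLC1 mice were also high for Foxo3 and for target genes. Mice 1-5, 2-1 and 2-4 had 79.0, 78.4 and 90.4 CPM of Foxo3, against 38.2, 44.9 and 58.6 CPM in mice 1-4, 2-2 and 2-5. They had 2758, 2374 and 2676 CPM of Trim63, against 647, 457 and 1183 CPM in mice 1-4, 2-2 and 2-5. For Fbxo32 the same mice had 3974, 2333 and 3489 CPM, against 978, 909 and 2287 CPM, so mouse 2-5 lay close to mouse 2-1. Female LLC1 mouse 2-5, whose 103 CPM of Foxo1 matched the high males, had 626 CPM of Trim63 and 587 CPM of Fbxo32. These mice were picked out after their values were seen, and no test was run on them.

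**Figure D5:**
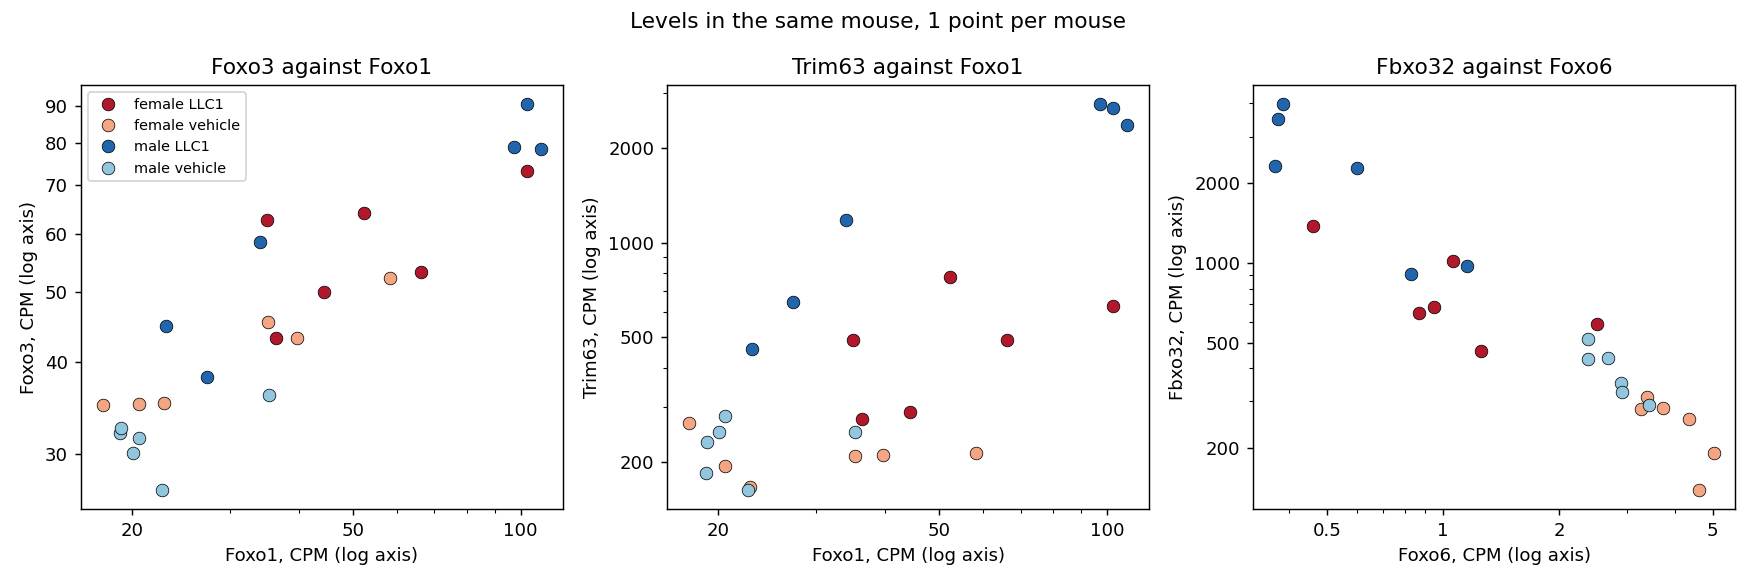
Levels in the same mouse (TMM-scaled CPM, log axes, 1 point per mouse, 24 mice) of Foxo3 against Foxo1, of Trim63 against Foxo1 and of Fbxo32 against Foxo6. Male LLC1 mice 1-5, 2-1 and 2-4 lie at 97.2 to 109 CPM of Foxo1 and 2374 to 2758 CPM of Trim63, and at the lowest Foxo6 levels of 0.367 to 0.385 CPM. Female LLC1 mouse 2-5 lies at 103 CPM of Foxo1 and at the highest Foxo6 level of the LLC1 mice, 2.51 CPM.

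To see which genes varied alike from mouse to mouse, each gene's group mean was taken off its log2 CPM. Pearson's r was then computed over the 24 libraries. The genes most like each of the 5 were sought among 12594 genes with a mean log2 CPM over 1. The values share libraries and are given as a description. Foxo1 and Foxo3 varied together (r = 0.86, and 0.74 without the 6 male LLC1 mice), and Foxo6 and Foxo6os did (r = 0.74 and 0.80). Foxo4 had r = 0.42 with Foxo3 (0.49 without the male LLC1 mice), 0.09 with Foxo1 and -0.10 with Foxo6. Foxo1 had r = -0.22 with Foxo6 and -0.40 with Foxo6os. Without the male LLC1 mice these were 0.39 and 0.33, so their signs rest on those mice. Foxo6 had r = -0.77 with Fbxo32, and -0.68 without the male LLC1 mice, and -0.59 with Trim63, and -0.26 without them. Foxo3 had 0.84 with Trim63, and 0.62 without the male LLC1 mice, and 0.56 with Fbxo32, and 0.04 without them. Foxo1 with Fbxo32 gave 0.30, and -0.42 without the male LLC1 mice, so its sign rests on those mice.

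The genes most like Foxo1 were Kdm4a, a histone demethylase gene (r = 0.92), the pseudogene Gm15725 (0.89, uncertain where reads could be split with near-identical copies), the zinc finger gene Zfp189 (0.87), Pik3r1 (0.87) and Foxo3. For Foxo3 they were Plin4, a coat protein of lipid droplets (0.90), Acacb, the acetyl-CoA carboxylase of muscle mitochondria (0.89), Kdm4b, a relative of Kdm4a (0.88), Fkbp5, a glucocorticoid-induced chaperone partner (0.87), and Pelp1 (0.87). For Foxo4 they were Spg7 (0.92), a mitochondrial protease gene, Kif1c (0.91), a kinesin gene, Pmpca (0.90), a mitochondrial processing peptidase gene, Adipor1 (0.90), an adiponectin receptor gene, and Zdhhc3 (0.90). For Foxo6 they were Hspb2 (0.84), a small heat shock protein gene, Znhit1 (0.84), Ppapdc3 (0.84), Acot7 (0.84), an acyl-CoA thioesterase gene, and Alkbh7 (0.82). For Foxo6os they were Kcng4 (0.94), a potassium channel subunit gene, Aimp2 (0.92), Tspan3 (0.91), Sema6c (0.91) and Nrep (0.91). Without the male LLC1 mice these r ran from 0.73 to 0.88 for Foxo6os, 0.69 to 0.85 for Foxo1 and 0.71 to 0.83 for Foxo3. They ran from 0.89 to 0.95 for Foxo4 and 0.79 to 0.86 for Foxo6. By rank (Spearman's rho, 24 libraries) the genes named for Foxo6os had 0.66 to 0.85.

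Of these genes, leaving out Foxo3, 9 of 24 were called with LLC1 in females (37.5%, against 9.92% of all genes) and 16 of 24 in males (66.7% against 36.3%). They were drawn from the 12594 genes with a mean log2 CPM over 1, and the share called among those is not given here. Kcng4 fell, with log2 fold changes of -1.21 ± 0.35 in females and -2.46 ± 0.36 in males (edgeR adjusted p = 0.0314 and 6.23e-05). Nrep, a gene raised in regenerating nerve, fell too, with -1.78 ± 0.34 and -2.22 ± 0.34 (adjusted p = 0.00174 and 9.10e-05). Fkbp5 rose by 1.60 ± 0.32 in males (adjusted p = 7.54e-04) and was at 0.77 ± 0.31 in females (adjusted p = 0.121). The 5 genes most like Foxo4 had adjusted p-values of 0.141 to 0.978 over both sexes.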

How the data were processed

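Poly(A) RNA libraries were made with version 2 of the TruSeq RNA kit, which keeps no strand, and 12 cycles of PCR, per the labels' protocols. Per the submitters' processing notes, CASAVA, STAR and featureCounts were used with the build mm10; their versions, settings and gene annotation were not given. The authors deposited whole-number read counts per gene, not normalized, for 24 libraries. Depth was 26.2 to 47.4 M (mega-counts). The 60 pairs of libraries within groups had chi-square values per degree of freedom of 10.05 to 211, so none repeated another. The labels do not say that libraries are separate mice beyond their titles, and p-values measure the spread between libraries.

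Genes were tested with edgeR 4.0.16 (R 4.3.3; filterByExpr, TMM factors of 0.924 to 1.10, robust quasi-likelihood F-test, 4 group means, 20 residual degrees of freedom), which was tested on simulated data. The simulated counts used the same spread setting in every gene and group. They cannot show how the fit does where groups differ in spread, as male LLC1 and male vehicle mice did for Foxo1. P-values were Benjamini-Hochberg adjusted over 17773 genes and called under 0.05. Alternatives used limma 3.58.1 (limma-voom) and DESeq2 1.42.0, other scalings and filters, replicate blocks, and leaving out each library. Gene positions, GENCODE M21 (GRCm38) and the deposited coordinates were the same for the 5 genes. The 5 genes and 17 lists were chosen with earlier results of these data known. Named genes are the 5 genes, up to 4 called per list with the largest fold change in each sex plus Fbxo32 and Trim63, the 5 most alike per gene, tested genes within 200 kb of Foxo6, and up to 4 called forkhead genes. Mice picked out by Foxo1 level were chosen after seeing values.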

Additional observations from a re-analysis of the deposited data

Results flagged for a closer look

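A single library stood apart from the other 5 of its group for 4 values, out of 36 groups of 6 libraries examined for the 5 genes and 4 further genes of the pathway; chance flags about 1 in 20 groups. Foxo1 was at 35.3 CPM in male vehicle mouse 1-4, above the other male vehicle mice. Foxo4 was at 99.5 CPM in male vehicle mouse 1-3, below the others of its group. Foxo6os was at 21.8 CPM in female vehicle mouse 2-1, above the others. Pik3r1 was at 120 CPM in female vehicle mouse 1-4, above the others.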

How the results depend on the processing

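The Foxo6 and Foxo6os log2 fold changes with LLC1 were negative under every alternative run, including those without 1 library (Foxo6 -2.13 to -1.58 in females and -2.45 to -2.07 in males, Foxo6os -2.37 to -1.95 and -2.97 to -2.40). Mice of first title number 1 (2 LLC1 and 3 vehicle mice) gave another direction in females, -0.14 for Foxo1 and -0.013 for Foxo3. This alternative was chosen after seeing the data. The Foxo4 difference between vehicle females and males, near 0, turned to 0.0947 with no normalization factors, 0.0555 without the 10 most abundant genes in the library sizes, 0.00745 with limma-voom and 0.0629 with the full title number as replicate block, and ran from -0.0995 to 0.0295 without 1 library; that of Trim63 turned to 0.0119 with the replicate block. The cause was not tested. Same-numbered mice had correlations of -0.17 to 0.06 over 6 pairs. With so few pairs, and with the meaning of the numbers not given, this cannot decide whether the numbers pair the mice. With the full title number as replicate block, 480 genes were called in females, 3607 in males and 269 between vehicle sexes, in place of 1763, 6449 and 1107, with 1 FoxO target called in females in place of 13 and 1 between vehicle sexes in place of 3; with the first number as block, 6 genes were called for the interaction. The Foxo6 call between LLC1 sexes ended with the full number as block (adjusted p = 0.0542). Sample weights in limma-voom gave 4006 calls in females, 2437 between vehicle sexes, 2 for the interaction and 8 targets between vehicle sexes. With only the groups compared in the fit, 966 genes in place of 2787 and 7 targets in place of 15 were called between LLC1 sexes, and 7 targets between vehicle sexes. With no filter on low counts, 8 targets were called in females. The interaction had 1 call with no normalization factors and 44 with DESeq2. With no normalization factors the split of calls in males was 4024 higher and 2187 lower, in place of 3462 and 2987, and between vehicle sexes 1131 and 292, in place of 524 and 583, where the median of all genes moved by 0.106. Without 1 library, calls ran from 919 to 2283 in females, 659 to 1476 between vehicle sexes, 1606 to 3724 between LLC1 sexes and 0 to 7 for the interaction, and targets from 6 to 14 in females. The fewest calls came without female LLC1 mouse 2-3 in females, without male vehicle mouse 2-5 between vehicle sexes and without male LLC1 mouse 2-4 between LLC1 sexes. Of 3261 values of named genes under alternatives, 196 lost their call and 1 turned its direction. Foxo6 rested on 12 to 36 counts per male LLC1 library.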

Other observations

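Other forkhead genes were set beside the FoxO genes. Of 42 such genes, 16 were tested, and 1 rose and none fell with LLC1 in females (6.25% against 9.92% of all genes tested), and 3 rose and none fell in males (18.8% against 36.3%). Foxk1, which encodes a factor that represses autophagy genes in fed muscle, rose by 0.53 ± 0.11 in females and 0.77 ± 0.11 in males (edgeR adjusted p = 0.00339 and 2.89e-05). Its mean was 44.0 ± 5.83 CPM in female LLC1 against 30.5 ± 2.40 CPM in female vehicle mice, and 67.7 ± 13.2 CPM in male LLC1 against 39.6 ± 3.77 CPM in male vehicle mice (SD, n = 6). Foxn2 rose by 0.41 ± 0.08 and Foxj3, which promotes mitochondrial gene expression in muscle, by 0.25 ± 0.08 in males (adjusted p = 7.83e-04 and 0.0137); the Foxj3 call ended without male LLC1 mouse 2-1 (adjusted p = 0.0503).

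Markers of other cells of muscle were counted too. Of 7 genes of fibro-adipogenic progenitors, which make connective tissue, 3 fell in females, where 4 did not pass and 4.95% of all genes were called lower, and 6 fell in males, where 16.8% were; none rose in either sex. Col3a1, a fibrillar collagen, fell, with log2 fold changes of -1.74 ± 0.40 in females and -2.40 ± 0.41 in males (edgeR adjusted p = 0.00805 and 2.06e-04). Of 5 satellite cell markers 2 fell and none rose in females (40.0% called, against 9.92% of all genes). In males 2 fell and 1 rose (60.0% against 36.3%). Their summed level had medians of 36.7 CPM in female LLC1 against 34.0 CPM in female vehicle mice, and 34.1 CPM in male LLC1 against 29.7 CPM in male vehicle mice. Cdh15, which encodes M-cadherin, rose by 0.38 ± 0.09 in males (adjusted p = 0.00239). Pax7, the satellite cell factor, fell, with -0.50 ± 0.13 and -0.57 ± 0.13 (adjusted p = 0.0139 and 0.00196), and its female call ended without female LLC1 mouse 2-3 (adjusted p = 0.0538).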
